A study of Mus musculus with 6 samples.

Results

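The tissue inhibitors of metalloproteinases (TIMPs) and Reck were examined in 2D-MAOs, flat cultures made from airway epithelial organoids of C57BL/6 mouse lung. The members were the 5 genes Timp1, Timp2, Timp3, Timp4 and Reck, chosen by name, and every array probe whose RefSeq accession mapped to one of them was taken (8 of 56599 probes), which gave 5 of the 22910 genes on the array. TGF-β1 was given to 3 cultures from day 3 in medium that lacked noggin, an inhibitor of bone morphogenetic proteins, and A83-01, an inhibitor of TGF-β receptors. The 3 control cultures were kept in the same medium without TGF-β1, and all 6 were collected on day 7. The concentration of TGF-β1 used for the arrays is not given in the sources used here. The organoids were dissociated and plated on type I collagen before treatment, so that all values describe whole flat cultures on a collagen substrate. The study describes the 3 cultures of a group as biological replicates, and the labels do not say whether they came from separate animals.

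TIMPs are small secreted proteins whose amino-terminal domain sits in the active site of matrix metalloproteinases (MMPs) and blocks cleavage of extracellular matrix. TIMP1 and TIMP2 are soluble, whereas TIMP3 binds to the matrix and also inhibits several proteases of the ADAM and ADAMTS families. TIMP2 has a further role, because together with the membrane protease MMP14 it takes part in the activation of pro-MMP2. Reck is a glycoprotein anchored to the cell surface that inhibits several MMPs and serves as a co-receptor for WNT7 ligands. TGF-β is known as an inducer of Timp1 in many cell types.

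Among these genes, Timp1 showed the largest difference between the groups. Its signal was 4.10-fold higher with TGF-β1 and higher on every treated array than on any control array, but it did not pass the adjusted threshold. Reck was 1.75-fold higher on average, with overlapping groups. Timp2 and Timp3 were bright on all arrays and differed by 1.09-fold and 1.12-fold, and Timp4 did not exceed background clearly on any array.

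The start regions of 3 genes are shown so that the gene with the largest difference, Timp1, and Reck can be set beside Timp3, for which little difference was measured. Each line gives 300 bases from 250 before to 50 after the gene start, as held by RefSeq on the mouse assembly GRCm38.p6, 5′ to 3′ on the strand of the gene. All 3 genes lie on the plus strand. Capitals mark matches to GGGCGG, the core of the sites bound by Sp1, and to TGAGTAA, a variant of the AP-1 site, on either strand.
Timp1, chrX:20869916-20870215: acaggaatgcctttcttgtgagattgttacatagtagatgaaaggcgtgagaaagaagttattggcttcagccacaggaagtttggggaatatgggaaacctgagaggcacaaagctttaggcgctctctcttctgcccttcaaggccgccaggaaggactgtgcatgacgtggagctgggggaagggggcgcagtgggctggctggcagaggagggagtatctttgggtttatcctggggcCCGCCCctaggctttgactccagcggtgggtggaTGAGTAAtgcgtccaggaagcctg
Reck, chr4:43875280-43875579: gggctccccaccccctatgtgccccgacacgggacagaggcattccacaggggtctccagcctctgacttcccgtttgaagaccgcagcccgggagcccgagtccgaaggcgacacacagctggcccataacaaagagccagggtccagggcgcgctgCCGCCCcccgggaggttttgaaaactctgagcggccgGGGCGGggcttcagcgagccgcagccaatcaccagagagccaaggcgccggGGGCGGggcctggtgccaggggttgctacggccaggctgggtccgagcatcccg
Timp3, chr10:86300162-86300461: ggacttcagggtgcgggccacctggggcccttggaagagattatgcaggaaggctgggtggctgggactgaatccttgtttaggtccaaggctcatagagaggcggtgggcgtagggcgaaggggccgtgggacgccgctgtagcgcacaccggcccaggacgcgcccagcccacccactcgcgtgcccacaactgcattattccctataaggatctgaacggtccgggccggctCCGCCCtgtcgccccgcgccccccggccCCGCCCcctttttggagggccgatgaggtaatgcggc

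The Timp1 window held TGAGTAA once, at position 27, where positions are those of the leftmost base of a match and count from 1 at the gene start, and GGGCGG once on the opposite strand at position -8. TGAGTAA was present in 2.68% of the 32851 windows of this length. Reck held GGGCGG at positions -92, -55 and -4, the first of these on the opposite strand, and Timp3 held it at -15 and 14 on the opposite strand. GGGCGG was present in 35.7% of windows. The canonical AP-1 site TGAGTCA, present in 5.2% of windows, was found in no window of the 5 genes. CAGAC, the longer form of the SMAD-binding element, was present in 49.6% of windows and among the 5 genes was found in that of Timp4. The motifs do not overlap each other in these windows, and a match describes letters and not binding. The base content was 55% G and C in the Timp1 window, against 67% in Timp3 and 69.3% in Reck. In the RefSeq annotation, Timp1, Timp3 and Timp4 each lie within a synapsin gene (Syn1, Syn3 and Syn2, respectively), and Timp2 overlaps Cep295nl. Of the host genes, Syn3 was tested and differed by -0.26 on the log2 scale (SE 0.13; adjusted p from limma, 0.289), whereas Syn1 and Syn2 never rose well above background.

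Every culture was measured on its own array, and brightness was normalized by quantiles on a log2 scale. Between 54.96% and 59.03% of probes were well above background on an array, and no spot was saturated. A gene entered the test when its probe rose well above background on 3 or more of 6 arrays. A gene was called when limma, fitted over 14345 genes, gave a Benjamini-Hochberg adjusted p under 0.05. By this rule 292 genes, 2.04% of those tested, were called, and 1.63% were called as higher. The median log2 fold change over all genes tested was -0.03. Brightness depends on the probe, so levels are compared between arrays and never between genes. As RNA was taken from whole cultures, a change in the share of one cell type and a change of RNA per cell cannot be told apart. The airway epithelial markers checked (Epcam, Cdh1, Krt8, Krt18, Krt19, Nkx2-1, Sox2, Krt5, Trp63 and Scgb1a1) were all among the genes tested, and 0 of 10 were called. Their values were not all alike. The club cell gene Scgb1a1 was 10.83, 10.18 and 7.77 in controls and 7.00, 7.57 and 7.42 with TGF-β1, a difference of -2.27 (SE 0.73, limma adjusted p = 0.158) with groups that did not overlap. The basal cell keratin gene Krt5 differed by 1.37 (SE 0.49) with overlap, and Epcam by 0.82 (SE 0.22) without overlap. Krt5 (limma adjusted p = 0.0194) and Epcam (0.0179) were called as higher when TGF-β1 replicate 3 was left out, as were 9.08% of all genes.

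**Figure D1:**
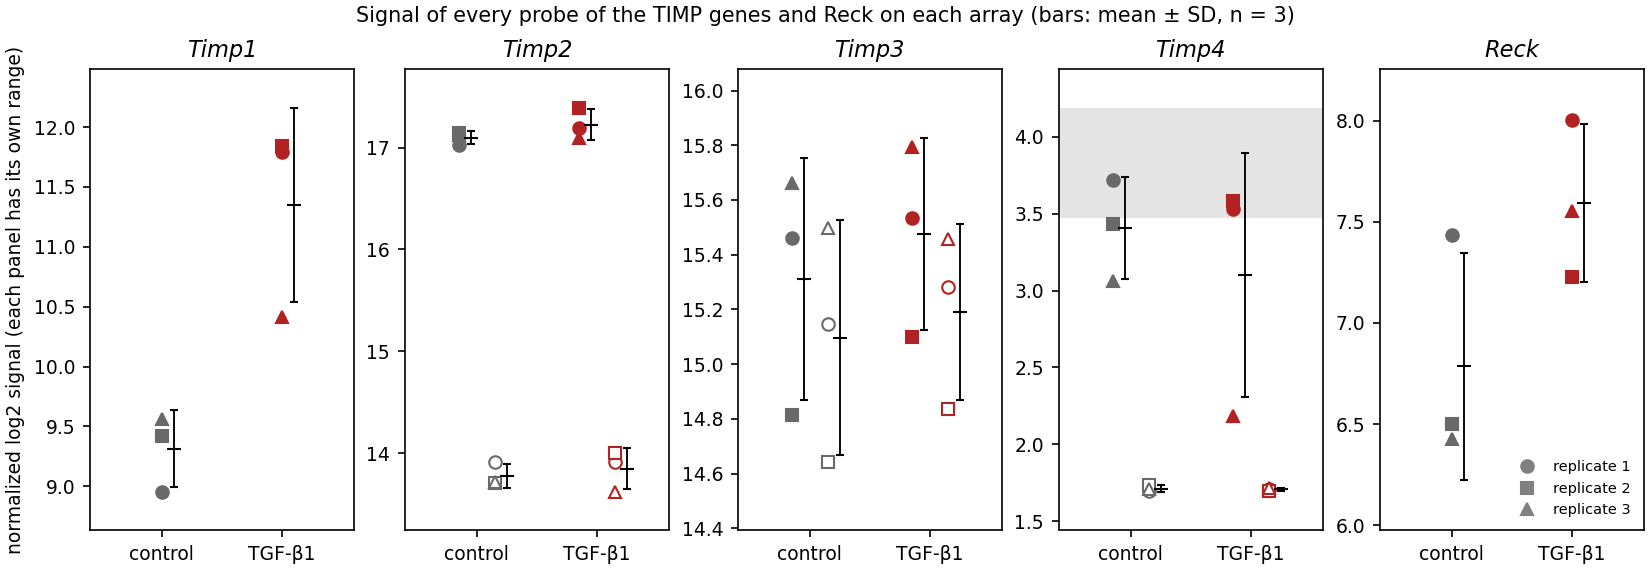
Normalized log2 signal of each of the 8 probes of Timp1, Timp2, Timp3, Timp4 and Reck on the 3 control and 3 TGF-β1 arrays, with the mean and SD of 3 arrays beside the points and a separate vertical range for each gene. Filled symbols show the brighter probe of a gene and open symbols the dimmer one. The grey band in the Timp4 panel spans the lowest signal well above background on each array, 3.47 to 4.19. The Timp1 arrays with TGF-β1 lie above all controls, with replicate 3 the lowest of them at 10.42.

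Timp1, the inducible soluble inhibitor, had a normalized log2 signal of 8.95, 9.42 and 9.57 on control arrays 1, 2 and 3 and of 11.79, 11.84 and 10.42 on TGF-β1 arrays 1, 2 and 3. The groups did not overlap, and TGF-β1 replicate 3 lay clearly below the other treated cultures. Controls averaged 9.31 ± 0.32 (SD, n = 3), and treated cultures averaged 11.35 ± 0.81 (SD, n = 3). The log2 fold change was 2.04 (SE 0.40), with a 95% interval from 1.09 to 2.98, and the limma adjusted p was 0.0597. Timp1 thus missed the threshold, although its unadjusted limma p was 0.00146. Control spots were 15 to 22.4 times as bright as the local background and treated spots 42.5 to 104 times, so the probe was measured well on both sides. Timp1 ranked 100 among the 14345 genes by increase. Groups that did not overlap, with TGF-β1 higher, were found for 12.9% of all genes. An exact two-sided permutation test over the arrays gave p = 0.1, the smallest that 3 against 3 arrays allow.

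The call for Timp1 turned on the setting. It passed the adjusted threshold in 8 of 18 alternative settings with an adjusted p and did not in the other 10. When the spread was shared over all probes in place of 1 probe per gene, an alternative run with the other fit and seen together with it, the limma adjusted p was 0.0460. The array of TGF-β1 replicate 3 moved the value most. Without it, the log2 fold change was 2.50 (SE 0.20) and the limma adjusted p 0.00341, but 9.08% of all genes were then called as higher and 6.27% as lower. Without either of the other TGF-β1 arrays the log2 fold change was 1.82 and 1.79, with limma adjusted p of 0.216 and 0.189.

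Replicate 3 of both groups was placed in slide row 2, and the remaining 4 arrays in slide row 1. Within slide row 1, the Timp1 difference was 2.63 on the log2 scale (limma adjusted p = 0.00779), and within slide row 2, which held 1 array of each group, it was 0.85 with no test possible. With slide row as a block, the limma adjusted p was 0.0548. Slide row and replicate 3 cannot be told apart.

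**Figure D2:**
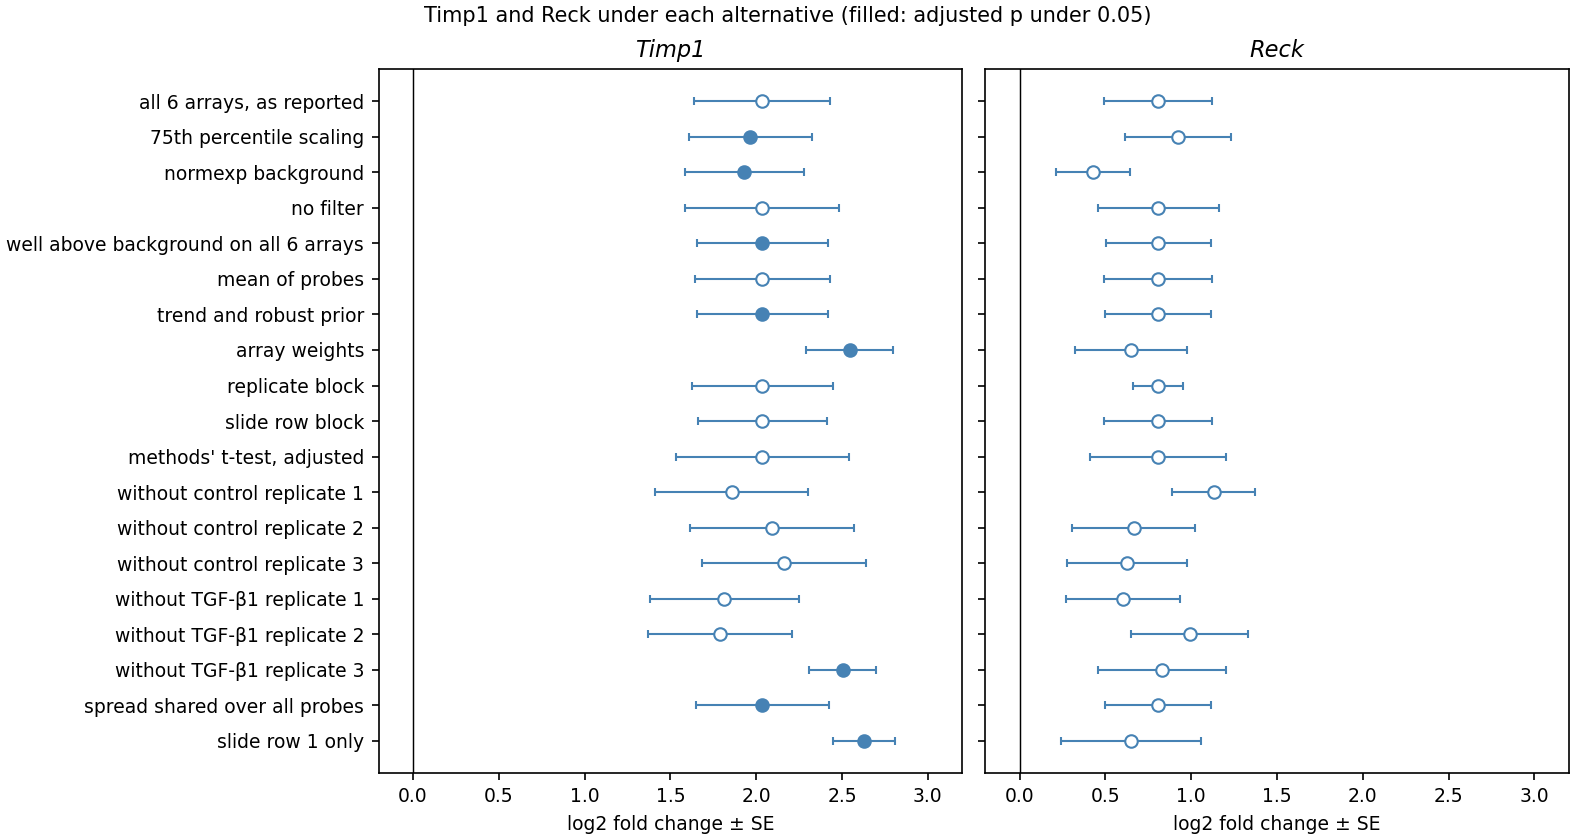
Log2 fold change (TGF-β1 minus control) with its SE for Timp1 and Reck under each setting, filled where the adjusted p was under 0.05; the unadjusted form of the methods' t-test, with the same fold changes, is left out. All points lie above 0, and Timp1 ranges from 1.79 to 2.63 while Reck ranges from 0.43 to 1.13 with no filled point.

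Reck, the inhibitor anchored to the membrane, had a log2 signal of 7.43, 6.50 and 6.43 on control arrays 1, 2 and 3 and of 8.00, 7.23 and 7.55 on the TGF-β1 arrays. Control 1 lay above TGF-β1 replicate 2, so the groups overlapped. The means were 6.79 ± 0.56 and 7.59 ± 0.39 (SD, n = 3 each). The log2 fold change was 0.81 (SE 0.32), with a 95% interval from 0.057 to 1.56 and a limma adjusted p of 0.203. Control spots were 3.83 to 7.56 times as bright as the local background, so Reck was measured closer to background than Timp1. With normexp background correction its log2 fold change was 0.43, and it passed the adjusted threshold in 0 of 18 alternatives.

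Timp2, the inhibitor with a part in pro-MMP2 activation, was measured by a pair of probes. The brighter one gave a log2 signal of 17.03, 17.14 and 17.12 in controls and of 17.19, 17.39 and 17.10 with TGF-β1. The groups overlapped, and the whole range over 6 arrays was narrow. The difference was 0.13 on the log2 scale (SE 0.12; adjusted p from limma, 0.534), and its 95% interval ran from 0.900-fold to 1.32-fold. The second probe gave 0.068. Scaling to the 75th percentile turned the sign of the brighter probe to -0.014.

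Timp3, the inhibitor bound to matrix, gave a log2 signal of 15.46, 14.81 and 15.66 in controls and of 15.53, 15.10 and 15.79 with TGF-β1. Replicate 2 was the lowest of both groups, and the groups overlapped almost fully. The difference was 0.16 on the log2 scale (SE 0.27; adjusted p from limma, 0.730), with a 95% interval from 0.722-fold to 1.74-fold, and the second probe gave 0.095. The sign turned under scaling to the 75th percentile, with a value of -0.11, and without control replicate 2, with -0.085.

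Timp4, an inhibitor best known from heart muscle, was represented by a pair of probes that were not well above background on any of the 6 arrays. The brighter one lay between 3.06 and 3.72 in controls and between 2.19 and 3.58 with TGF-β1, where the lowest log2 signal well above background was 3.47 to 4.19 on the arrays. No fold change is given for this gene. Timp4 was left out of the test by the filter, so 4 of the 5 genes were tested and 0 of 4 were called.

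The changes of the genes were also compared with each other, over 6 pairs. The Timp1 change exceeded that of Timp2 by 1.91 and that of Timp3 by 1.87 on the log2 scale, and in both pairs the arrays of the groups did not overlap in the difference between the genes. The exact two-sided permutation p was 0.1 in both, the smallest the design allows, and 0.3 after Benjamini-Hochberg adjustment over the 6 pairs. The Reck change minus the Timp1 change was -1.23 with overlapping groups (exact permutation p = 0.3, adjusted 0.36). The pairs Timp2 with Timp3 and Reck with either of these also overlapped. No pair passed at this number of arrays.

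TGF-β1 replicate 3 lay below the other treated arrays for Timp1 and between them for Reck. The difference of Timp1 from the control mean on this array was 44.0% of that on TGF-β1 replicates 1 and 2, and for Reck it was 92.2%. Over the 632 genes that were higher by at least 1 on the log2 scale on replicates 1 and 2, the median was 39.7%. These genes were taken by their values on replicates 1 and 2, which lowers the share on the third array. The collagenase gene Mmp13 and the stromelysin gene Mmp10 stood at 111% and 106%. At the other end, the fibroblast marker Thy1 stood at 7.27%, Adam12 at 10.3% and Adamts16 at 12.1%. With 1 array, these shares carry no error.

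**Figure D3:**
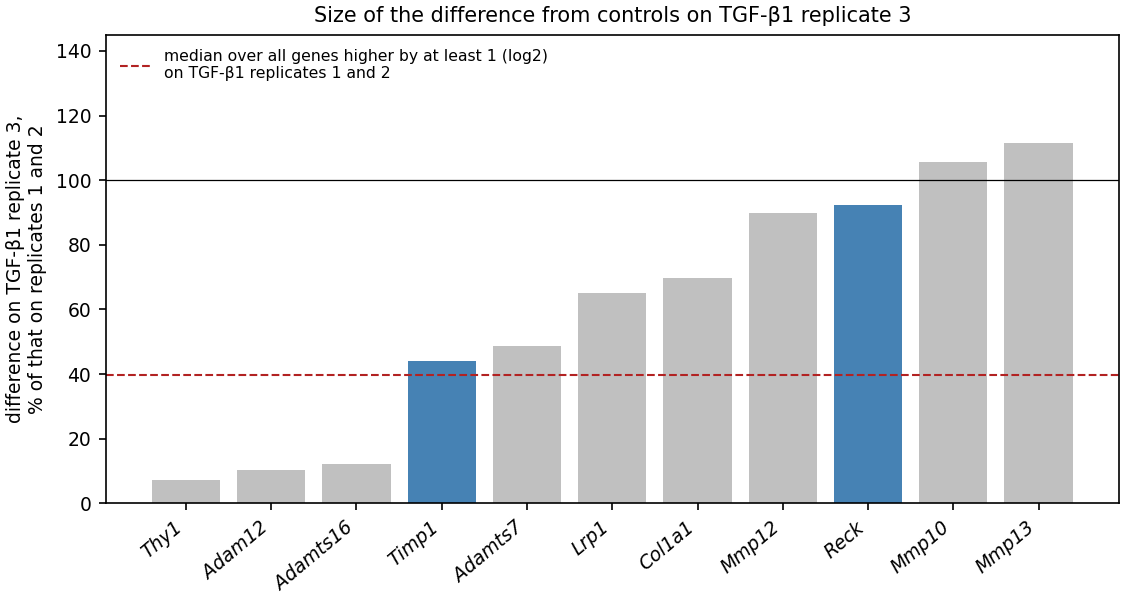
Difference of TGF-β1 replicate 3 from the control mean, as a percentage of the same difference for TGF-β1 replicates 1 and 2, for Timp1 and Reck (blue) and for 9 genes of the lists (grey). The dashed line is the median over 632 genes, 39.7%. Timp1 lies at 44.0%, near the line, and Reck at 92.2%, near the full difference of replicates 1 and 2.

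Secreted MMPs, the main targets of the TIMPs, held the largest increases of the protease families. Of 16 listed genes, 15 were on the array and 6 were tested. Of these, 5 had a log2 fold change above 0 and 3 were called as higher, where 1.63% of all genes were. Mmp13 rose by 4.68 on the log2 scale (SE 0.32, adjusted p from limma 0.00247), Mmp10 by 4.47 (SE 0.27, adjusted p 0.00160) and the macrophage elastase gene Mmp12 by 3.82 (SE 0.54, adjusted p 0.0216). Mmp13 lay between 4.46 and 4.99 in controls and between 8.61 and 9.74 with TGF-β1. Mmp10 lay between 4.72 and 5.69 in controls and between 9.30 and 9.74 with TGF-β1. Mmp12 was well above background on 2 of the 3 control arrays. With each array left out in turn, Mmp13 and Mmp10 were called in 6 of 6 fits (largest adjusted p from limma 0.0205), and Mmp12 in 2 of 6. The Mmp12 call was lost when any one of these arrays was left out, control 1 (0.0533), control 2 (0.0968), TGF-β1 array 1 (0.102) or TGF-β1 array 2 (0.0976). Without a filter the adjusted p from limma was 0.0328 for Mmp13, 0.0263 for Mmp10 and 0.105 for Mmp12. The median over the 6 was 2.15, beside -0.03 over all genes. The gelatinase genes Mmp2 and Mmp9, both known targets of Reck, never rose well above background, and neither did 5 further members of the list. The difference between the change of an inhibitor and that of a protease was not tested.

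Of the 7 membrane-bound MMPs, 5 were tested and 0 were called, with a median log2 fold change of 0.32. Mmp14, the partner of TIMP2 at the cell surface, differed by 0.42 on the log2 scale (SE 0.20; adjusted p from limma, 0.273). Mmp17 stood at 0.45 and Mmp23 at 0.32. Without TGF-β1 replicate 3, Mmp14 (0.63, limma adjusted p = 0.0301) and Mmp23 (0.46, limma adjusted p = 0.0438) were called, as were 9.08% of all genes as higher.

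Among the ADAM proteases, some of which are inhibited by TIMP3, 8 of 9 were tested and 0 were called, with a median of 0.36. The largest differences were 1.43 for Adam12, 0.84 for Adam8 and -0.47 for Adam33 on the log2 scale. Without TGF-β1 replicate 3, Adam12, Adam8, Adam10 and Adam15 were called as higher. That fit, which also gave the further calls below, called 9.08% of all genes as higher and 6.27% as lower. Of 19 ADAMTS proteases, 6 were tested and 0 were called, with 3 above and 3 below 0 and a median of 0.30. Adamts16 stood at 3.24 (SE 1.12), Adamts7 at 1.62 (SE 0.35) and Adamts15 at -1.05 (SE 0.25). Without TGF-β1 replicate 3, Adamts16 (limma adjusted p = 0.00828) and Adamts7 (0.0129) were called as higher and Adamts17 (0.0389) as lower. The remaining modulators of metalloproteinases had 3 of 9 genes tested and 0 called. Spock1 stood at -0.38, Pcolce at -0.15 and the MMP inducer Bsg at -0.11. Spock1 was called as lower without TGF-β1 replicate 3 (limma adjusted p = 0.0395). The same omission also brought calls as higher for Mmp11 among the secreted MMPs (0.0193), for Itgb1, a partner of TIMP1 complexes (0.0394), and for Wnt7a, a ligand of the Reck receptor complex (0.0462).

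**Figure D4:**
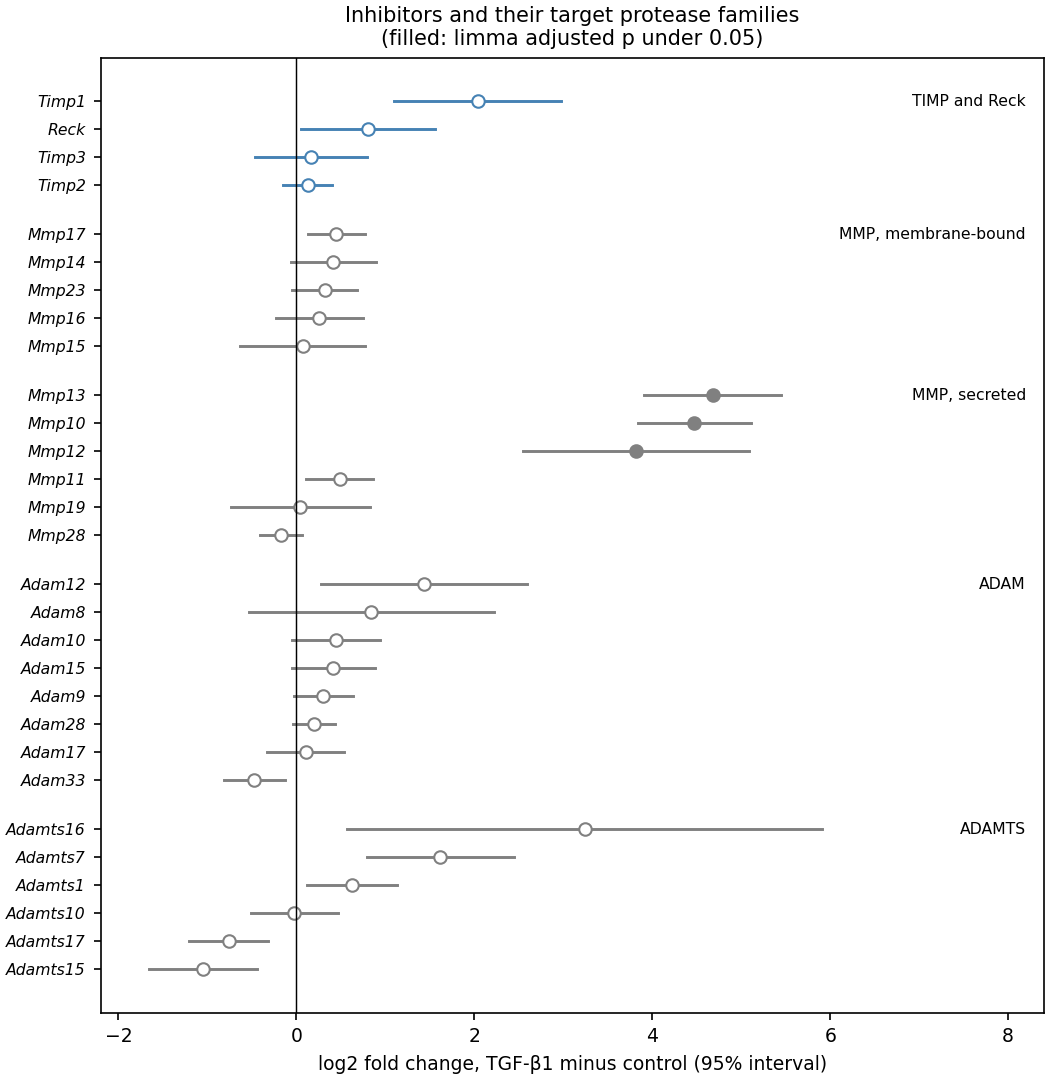
Log2 fold change (TGF-β1 minus control) with its 95% interval for the 4 tested inhibitor genes (blue) and the tested genes of the protease families (grey), filled where the limma adjusted p was under 0.05. The filled points are Mmp13, Mmp10 and Mmp12, at 4.68, 4.47 and 3.82, and the intervals of Timp2 and Timp3 span 0.

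TIMPs and Reck also act through partners outside the protease families. Of 6 proteins known to bind TIMPs, 5 were tested, 4 had a log2 fold change above 0 and 1 was called as higher. This was Lrp1, the endocytic receptor that clears TIMPs and MMPs from the cell surface, which was higher by 1.54 on the log2 scale (SE 0.24; adjusted p from limma, 0.0315). Its signal lay between 9.52 and 10.18 in controls and between 10.90 and 11.55 with TGF-β1, without overlap. Leaving out control 1 (adjusted p from limma 0.123), control 2 (0.119), TGF-β1 array 1 (0.144) or TGF-β1 array 2 (0.122) ended the Lrp1 call, as did testing without a filter (0.115). Cd63, the tetraspanin that binds TIMP1, differed by 0.02 (SE 0.10), its integrin partner Itgb1 by 0.59 (SE 0.19), and Efemp1, the matrix protein that binds TIMP3, by -0.24. Of the 6 genes for WNT7 ligands and receptors that act with Reck, 5 were tested and 0 were called, with a median of 0.36. Wnt7a stood at 0.77 (SE 0.16, limma adjusted p = 0.0686) with groups that did not overlap, Lrp6 at 0.46 and Fzd4 at 0.36. The co-receptor gene Adgra2 was well above background on 1 of 6 arrays and was not tested. Among 15 proteins with the netrin-like domain that TIMPs carry, 9 were tested and 1 was called, the secreted WNT modulator Sfrp2. It was not well above background in any control and was at least 6.12-fold higher with TGF-β1 (limma adjusted p = 0.0151). The bound sets the mean of the treated arrays against a floor, the mean over the 3 control arrays of the lowest signal well above background on each. Sfrp2 entered the test through the treated arrays alone, so a difference was built into its selection and its call says nothing further about the list. Without a filter its adjusted p from limma was 0.0873, and without any one of the same 4 arrays it was 0.0533 to 0.0729.

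Markers of other cell types moved with the groups in part. Of 10 fibroblast markers, 5 were tested and 2 were called, the collagen genes Col1a1 (at least 2.59-fold, limma adjusted p = 0.00910) and Col1a2 (at least 2.38-fold, limma adjusted p = 0.0162). Neither was well above background in any control, so both entered the test through the treated arrays alone and had to differ. Without a filter the adjusted p from limma was 0.0606 for Col1a1 and 0.0805 for Col1a2. Col1a1 lost its call without TGF-β1 replicate 2 (adjusted p from limma 0.0515), and Col1a2 lost it without that array (0.0727) and without control replicate 1 (0.0597) or 2 (0.0754). The summed normalized linear signal of the tested fibroblast markers was 566.7 to 638.2 in controls and 698.3 to 2700 with TGF-β1. Dcn had the highest signal of these markers on every array and so carried most weight in this sum. Its log2 signal was 8.9835, 8.81 and 8.96 in controls and 11.10, 9.68 and 8.9840 with TGF-β1. Dcn differed by 1.00 (SE 0.49, limma adjusted p = 0.273), with groups that only just did not overlap. Col3a1, Lum, Pdgfrb, Postn and Tcf21 were not well above background on any array. Thy1, another of these markers, was 8.19, 7.65 and 4.60 on TGF-β1 arrays 1, 2 and 3. It differed by 2.47 (SE 0.87) with overlap, and was called as higher without TGF-β1 replicate 3 (limma adjusted p = 0.00212). In that fit 9.08% of all genes were called as higher. Replicate 3 was the lowest treated array for Thy1, Col1a1 and Dcn, as for Timp1. For Col1a2 the lowest was replicate 1, and for Pdgfra replicate 2. Of 8 endothelial and 8 leukocyte markers, 3 and 4 were tested and 0 were called. Of the leukocyte markers, Cd68 stood at 0.90 (SE 0.28) and Itgam at 0.43 (SE 0.13), both without overlap, and Cd3e at -0.24 and Csf1r at 0.01. The summed normalized linear signal of the tested leukocyte markers was 10550 to 12260 in controls and 13550 to 14740 with TGF-β1. That of the endothelial markers was 97.3 to 116.5 and 104.3 to 122.9. The endothelial genes Cdh5, Cldn5, Emcn, Kdr and Tek and the leukocyte genes Ptprc, Lyz2, Adgre1 and Cd79a were not well above background on any array. The part of the fibroblast and leukocyte markers in the Timp1 and Reck values was not tested.

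The genes most like Timp1 were sought among 13516 genes well above background on all 6 arrays, by the root mean square difference between profiles centred on their own means. The nearest of those reported were 8030431J09Rik (0.12 log2 units) and Cyp21a1, a steroid hydroxylase (0.14), where Timp1 itself spanned 2.89 log2 units. Their log2 fold changes were 1.84 and 2.00. The nearest to Reck, which spanned 1.58 log2 units, were Pik3cd, a catalytic subunit of phosphoinositide 3-kinase (0.093), Nlrp10 (0.13) and Ypel4 (0.16), with log2 fold changes of 0.73, 1.02 and 0.80. Likeness over 6 arrays of a single experiment is a description of these profiles.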

How the data were processed

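RNA of 3 control and 3 TGF-β1-treated 2D-MAO cultures was labelled with Cy3 and hybridized to single-colour Agilent arrays. The deposited files hold, for each spot, the intensity on a linear scale that Agilent Feature Extraction 11.0.1.1, named in the submitters' processing notes, gave after background subtraction, with medians of spot and local background. The deposited files also hold marks for spots (other values), such as well above background. No normalization between arrays was in the files, and the study applied quantiles afterwards.

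Control and marked spots were left out (56605 non-control probes, 56599 kept). Accessions were matched to RefSeq symbols of GRCm38.p6 (32991 probes, 58.3%). Log2 signals were normalized by quantiles, 32460 probes that exceeded background well on 3 or more of 6 arrays were kept, the brightest probe stood for a gene, and limma 3.58.1 in R 4.3.3 was fitted without covariates. The number of arrays limits the precision. P-values from limma set the difference between the groups against the spread between these cultures, which limma draws towards a value shared by all genes tested. The written plan could be read as fitting genes or probes, and both were run and seen together. The fit on genes was kept, and the other is given as an alternative chosen after seeing the data. Normexp used medians. The analysis was tested on simulated data.

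Members, lists and tests were chosen with earlier results of these data known. Named genes are the members, up to 3 genes of each list with the largest change, called genes of a list, and the 3 genes most like Timp1 and Reck. 1 gene named by this rule is left out here. Genes named for a missing signal, for a call without TGF-β1 replicate 3 or as Adgra2, Csf1r, Dcn, Mmp14, Pdgfra and Thy1 were chosen after their values were seen, unless the rule names them. The alternatives were scaling, background, filter, probe summary, variance prior, array weights, replicate block, slide row, the methods' t-test and each array left out. Arrays were compared in slide row 1 alone after the data were seen.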

Additional observations from a re-analysis of the deposited data

How the results depend on the processing

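Timp1 kept its direction in all 19 alternatives. Of the 18 with an adjusted p, it passed in 8. Its log2 fold change and limma adjusted p were 1.97 and 0.0405 with scaling to the 75th percentile, 1.93 and 0.0282 with normexp background, 2.04 and 0.0474 with detection on all 6 arrays, 2.04 and 0.0359 with trend and robust prior, 2.54 and 0.00211 with array weights, and 2.50 and 0.00341 without TGF-β1 replicate 3. With the spread shared over all probes (2.04, limma adjusted p = 0.0460) and with slide row 1 alone (2.63, limma adjusted p = 0.00779), both chosen after seeing the data, it also passed. The methods' t-test gave 2.04 with an unadjusted p of 0.0155 and an adjusted p of 0.238. Timp1 did not pass without a filter (limma adjusted p = 0.170) or with the mean of probes (0.0587). With each array left out it ranged from 1.79 to 2.50, and the adjusted p from 0.00341 to 0.216. Reck passed in none (adjusted p 0.108 to 0.505). Timp2 turned to -0.014 and Timp3 to -0.11 under the 75th percentile, and Timp3 to -0.085 without control replicate 2 (with each array left out, from -0.085 to 0.35). The cause was not tested.

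The replicate numbers were not used to pair the cultures, and the labels do not say whether they do. Deviations of same-numbered arrays correlated at -0.008, 0.33 and -0.047, and 2 of 6 arrays correlated best with their own number. So few arrays cannot decide whether the cultures were paired. With the replicate block, Timp1 had a limma adjusted p of 0.122 and Reck of 0.108, and 86 genes were called higher and 18 lower in place of 234 and 58. The block gave an SE of 0.15 for Reck, 0.11 for Timp3, 0.11 for Timp2 and 0.41 for Timp1, beside 0.32, 0.27, 0.12 and 0.40 without it. Same-numbered Reck arrays differed by 0.57, 0.73 and 1.12 on the log2 scale.

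Over all genes, the calls higher and lower were 59 and 15 without a filter, 399 and 108 with trend and robust prior, 2408 and 2575 with array weights, 1986 and 1861 in slide row 1 alone, 1305 and 1147 by the unadjusted methods' t-test and 7 and 2 by the adjusted one. At a 2-fold change the t-test gave 312 and 76 unadjusted and 4 and 1 adjusted. With slide row as a block they were 290 and 105. With each array left out the calls ranged from 49 to 1302 higher and from 7 to 900 lower, both highest without TGF-β1 replicate 3. The median over all genes was -0.09 under the 75th percentile, beside -0.03. Signal over background limits Timp4, and Reck more than the other genes tested.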
